A study of Homo sapiens with 6 samples.

Results

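The 262 retrotransposon repeat families of the deposited expression table were compared between human MCF10A cells that received a pre-miR-203a vector and cells that received the empty vector. The families were all entries whose type named them as retrotransposons, 262 of the 18999 listed features. By type and name they divided into 78 ERV1, 27 ERV2 and 36 ERV3 families of endogenous retroviruses, 64 L1 families, 48 Alu and related families, 6 SVA families, 2 MIR families and 1 CR1 family. Each family stands for all of its copies in the genome and was given 1 length, from 118 to 8978 bases. How reads that match several families or copies were assigned is not given in the sources used here, so values of near-identical families are uncertain.

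MCF10A is an immortalised, non-tumorigenic line of mammary epithelial cells. Cells were infected with a retrovirus made from pMSCVpuro, either empty or with the pre-miR-203a insert, and were kept under puromycin, so both groups carried an integrated retroviral vector. Each group had 3 libraries, the empty-vector ones being called controls here, and the study's purpose was to find targets of miR-203a. The series text describes total RNA, while the extract protocol describes an AGO2 pulldown before mRNA purification, and the labels do not settle which applied. The labels name no separate cultures for the libraries, so a p-value here measures only library-to-library spread, which could be technical.

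Retrotransposons copy themselves through an RNA that is reverse transcribed and inserted elsewhere. Endogenous retroviruses keep an internal part that once coded for viral proteins, flanked by long terminal repeats (LTRs) that hold the promoter, and repeat libraries list the internal part and the LTR as separate families. L1 elements encode their own reverse transcriptase, and the short Alu and SVA elements depend on it. In most somatic cells DNA methylation and histone H3 lysine 9 methylation keep these elements quiet. RNA from a repeat can start at the element's own promoter, or it can be a stretch of another gene's transcript in which a copy lies, and counts per family do not separate these sources.

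The targeted microRNA gene set the groups apart. MIR203A was at 4.63, 5.44 and 6.96 FPKM (fragments per kilobase, scaled to library size) in empty-vector libraries 1, 2 and 3, and at 19005, 3699 and 24945 FPKM in pre-miR-203a libraries 1, 2 and 3. The main product of the hairpin, miR-203a-3p, is printed here because its seed (bases 2 to 8, in capitals) is searched for further on, and it comes from RefSeq on GRCh38.p14, chr14:104117469-104117490, plus strand.
hsa-miR-203a-3p: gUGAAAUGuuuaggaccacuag
The libraries held 15724554, 35084590 and 28721937 reads over listed features in the empty-vector group and 16658840, 20831785 and 7632063 in the pre-miR-203a group. Mitochondrially encoded genes took 4.16% to 8.55% of these reads. All 11 markers of mammary epithelium, the labelled cell type, were listed, with a summed level of 1376 to 1851 FPKM per library. Single markers differed between the groups. At a limma adjusted p under 0.05 (fit described below), KRT5 was lower with pre-miR-203a (log2 fold change −0.68). ITGB4, CDH1 and KRT8 were higher (0.51, 0.85 and 0.93), and the other epithelial markers were not called. With the replicate number as a block, ITGB4 lost its call (limma adjusted p = 0.0526). In that fit KRT17 was called higher (log2 fold change 0.82, limma adjusted p = 0.0173) and TP63 lower (−0.81, 0.0259). KRT14 was low, at 0.724 to 1.84 FPKM. Of the other cell types, 2 of 4 fibroblast markers were listed, with sums of 0.756 to 1.08 FPKM in the empty-vector group and 1.93 to 1.96 FPKM in the pre-miR-203a group. COL1A1, 1 of these 2, was called higher (log2 fold change 0.63, limma adjusted p = 0.0129), and COL3A1 was under the level tested. Blood markers summed to at most 1.42 FPKM, endothelial markers to at most 0.339 FPKM and adipocyte markers to at most 0.269 FPKM.

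Retrotransposon families took a small share of the reads, and the share in the pre-miR-203a group overlapped that of the empty-vector group. All 262 families together held 0.181%, 0.0943% and 0.220% of the reads in empty-vector libraries 1, 2 and 3, and 0.268%, 0.193% and 0.157% in pre-miR-203a libraries 1, 2 and 3. The lowest share was in empty-vector library 2, the deepest of the 6, and the highest was in pre-miR-203a library 1. The ratio of the group means was 1.25, with p = 0.5 in a two-sided exact permutation test. With 3 libraries against 3 this test cannot go below 0.1. In bulk RNA of this kind, fewer cells with a transcript and less of it per cell cannot be told apart.

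Among the classes, ERV1 was the one whose library shares did not overlap between the groups. ERV1 families held 0.0176%, 0.0101% and 0.02086% of reads in the controls against 0.0307%, 0.0301% and 0.02086% with pre-miR-203a, a ratio of 1.68 with an exact permutation p of 0.1, two-sided. Library 3 of each group stood all but level. Without HERVH, the most abundant family of the class, the other 77 ERV1 families had a ratio of 1.08 and overlapping groups, with p = 0.8 in the same exact permutation test. The ratios of the other classes were 1.53 for ERV3, 1.25 for Alu and related, 1.23 for SVA, 1.11 for L1, 0.900 for ERV2, 0.830 for MIR and 0.764 for CR1. Their exact permutation p-values, two-sided, ran from 0.3 to 1.0.

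**Figure D1:**
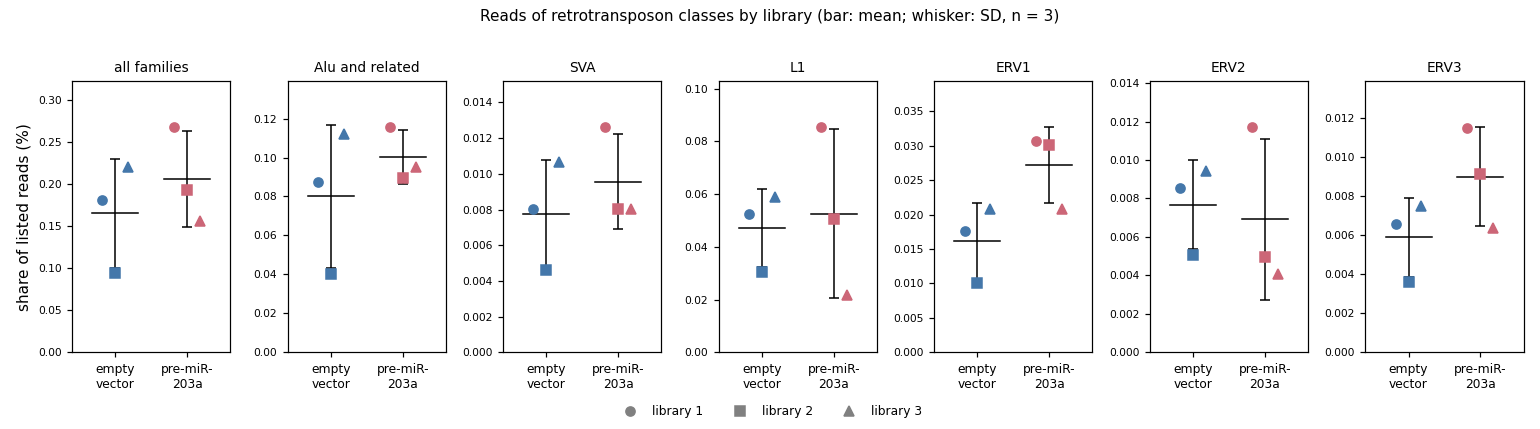
Share of reads over listed features (%, vertical axis, a separate scale for each class) in each of the 6 libraries for all retrotransposon families and for 6 classes; points are libraries, the horizontal bar is the group mean and the whisker is the SD (n = 3). The ERV1 points of the pre-miR-203a group lie at or above the highest empty-vector point, while the other classes overlap and empty-vector library 2 is the lowest empty-vector point throughout.

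Of the 262 families, 123 reached 1 FPKM in at least 3 libraries and were tested in a limma fit over all 11271 features that did so, on log2(FPKM + 1), with Benjamini-Hochberg adjustment over all of them. The filter passed 43 of 48 Alu and related families, 6 of 6 SVA, 2 of 2 MIR, 28 of 64 L1, 14 of 78 ERV1, 15 of 27 ERV2 and 15 of 36 ERV3, and not the CR1 family. It passed 41 of 109 LTR families but 3 of 32 internal families of endogenous retroviruses (HERVH, HERVK and MST_I), which are long, so that the same number of reads gives a lower FPKM. L1MA4A, with 0.960 FPKM in its third-highest library, was just under the filter, and L1PA14, with 1.01 FPKM, was just over it.

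HERVH, LTR7Y and AluYd8 rose with pre-miR-203a and FAM fell, at an adjusted p under 0.05 in the limma fit. These were 4 of 123 tested families, against 15.8% of all tested features, so families were called at a lower rate than features at large. At an unadjusted limma p under 0.05 there were 10 families higher and 2 lower, against 13.0% and 17.1% of all features and 30.1% in either direction. The groups did not overlap, with the pre-miR-203a libraries higher, in 9 families (AluSg7, AluSq4, AluSx1, AluYd8, FLAM, HERVH, LTR7C, LTR7Y and MLT2A2) against 16.6% of all features. They did not overlap with those libraries lower in 1 family (FAM), against 20.9% of all features, or 37.5% in either direction. These counts depend on the scale. With each level set against the median family of the same library, a scale chosen after the data were seen, 4 families were higher without overlap (AluYd8, HERVH, LTR7C and LTR7Y), against 0.869% of all features. On that scale 12 were lower without overlap (FAM, LTR5A, LTR5B, MER9a1, MER9a3, MSTB1, THE1D, L1MB3, L1PA15, L1PA7_5, MIR and SVA_E), against 7.22% of all features. AluSg7, AluSq4, AluSx1, FLAM and MLT2A2 overlapped there. Subtracting the median family passes its library differences on to features that do not share them. That widens their groups and lowers the shares of all features, so on this scale these shares cannot show an excess of families.

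Small differences of 1 sign were common. The log2 fold change was positive in 92 of 123 families, and in 39 of 43 Alu and related families, against 48.3% of all tested features. The median log2 fold change was 0.17 over the families and −0.01 over all features. By class the median was 0.36 for Alu and related, 0.24 for ERV3, 0.20 for SVA, 0.16 for ERV1, 0.05 for ERV2, 0.05 for L1 and −0.13 for MIR.

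Many families shared the order of the libraries. Of the 123 families, 77 had their lowest level in empty-vector library 2 and 75 had their highest in pre-miR-203a library 1. Among L1 families 19 of 28 were lowest in pre-miR-203a library 3, the shallowest library, and among Alu and related families 4 of 43 were; this difference was not tested. The level of the median family was 5.77, 3.54 and 7.98 FPKM in empty-vector libraries 1, 2 and 3 and 11.1, 6.29 and 4.65 FPKM in pre-miR-203a libraries 1, 2 and 3. The part of these library differences in the class medians was not tested.

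**Figure D2:**
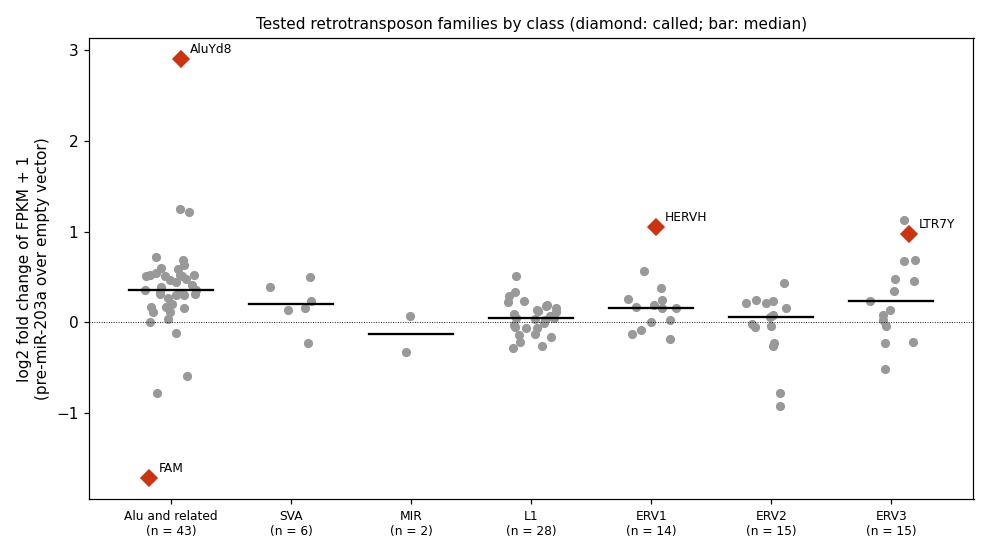
Log2 fold change of FPKM + 1, pre-miR-203a over empty vector (vertical axis), for each of the 123 tested families by class (horizontal axis, n is the number tested, points spread sideways at random); diamonds are the families called by limma and bars are class medians. AluYd8, at 2.90, and FAM, at −1.72, are the ends of the range, and HERVH and LTR7Y stand at 1.05 and 0.98.

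HERVH is a family of endogenous retroviruses known for its transcription from LTR7 promoters in human pluripotent stem cells. HERVH, the internal part, was at 13.0, 8.06 and 15.3 FPKM in empty-vector libraries 1, 2 and 3 and at 26.5, 30.5 and 20.1 FPKM in pre-miR-203a libraries 1, 2 and 3. Every pre-miR-203a library was above every empty-vector library. Its reads numbered 1577, 2180 and 3384 in the controls against 3411, 4907 and 1184 with pre-miR-203a. The log2 fold change was 1.05 ± 0.24 (SE), with a limma adjusted p of 0.0267. The call ended with the replicate number as a block (limma adjusted p = 0.0591), without a filter on low values (0.0533), and without any 1 of control library 1 (0.0692), control library 2 (0.0588), pre-miR-203a library 1 (0.0895) and pre-miR-203a library 2 (0.0747).

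LTR7Y, a subfamily of the LTR that flanks HERVH, had the highest level of all tested endogenous retrovirus families. It stood at 37.7, 25.8 and 45.7 FPKM in the controls against 75.5, 76.9 and 60.8 FPKM with pre-miR-203a, again with no overlap. Its log2 fold change was 0.98 ± 0.21 (SE), with a limma adjusted p of 0.0215, and 0.043 with the replicate block. The call ended without control library 1 (limma adjusted p = 0.0643), pre-miR-203a library 1 (0.077) or pre-miR-203a library 2 (0.0618).

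The other LTR7 families, which the table files under ERV3 although HERVH is under ERV1, had positive fold changes too, on fewer reads. LTR7C was at 5.27, 1.57 and 4.58 FPKM in the controls against 14.1, 6.52 and 7.23 FPKM with pre-miR-203a, on 26 to 111 reads. The groups did not overlap, with a log2 fold change of 1.13 ± 0.39 (SE) and a limma adjusted p of 0.101, which became 0.0241 with the replicate block. LTR7A had a log2 fold change of 0.69 ± 0.28 (SE) with a limma adjusted p of 0.144, and 0.0418 without control library 3. LTR7B had 0.35 ± 0.32 (SE) with a limma adjusted p of 0.532. Their groups overlapped.

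HERVH and the 4 LTR7 families together held 0.0125%, 0.00782% and 0.0148% of reads in the controls against 0.0257%, 0.0282% and 0.0192% with pre-miR-203a. The groups did not overlap and the means had a ratio of 2.08 (exact permutation p = 0.1, two-sided, the smallest possible). All other families together had a ratio of 1.18 with p = 0.6 in the same exact permutation test. HERVH and LTR7Y had been called higher in the same libraries, so part of this contrast follows from setting them apart. As a share of retrotransposon reads, HERVH and LTR7 made up 6.92%, 8.29% and 6.74% in the controls against 9.56%, 14.7% and 12.3% with pre-miR-203a. This second measure does not depend on the overall repeat level of a library, and its groups did not overlap either. It holds the same families set apart after their call, and it moves with the other classes. L1 made up 26.7% to 32.2% of retrotransposon reads in the controls, against 31.9%, 26.2% and 13.8% in pre-miR-203a libraries 1, 2 and 3.

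The internal part and the LTR were higher together. The ratio of HERVH to LTR7Y reads was 5.63, 5.11 and 5.47 in the controls against 5.74, 6.49 and 5.41 with pre-miR-203a, with overlapping groups and p = 0.3 in a two-sided exact permutation test. When each level was set against the median family of the same library, the log2 difference between the groups was 0.77 for HERVH, 0.69 for LTR7Y and 0.84 for LTR7C. Each of the 3 kept its groups apart on that scale, with an exact permutation p of 0.1, two-sided, while FLAM and AluSg7 (0.3), AluSx1 and AluSq4 (0.4) and MLT2A2 (0.6) overlapped.

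**Figure D3:**
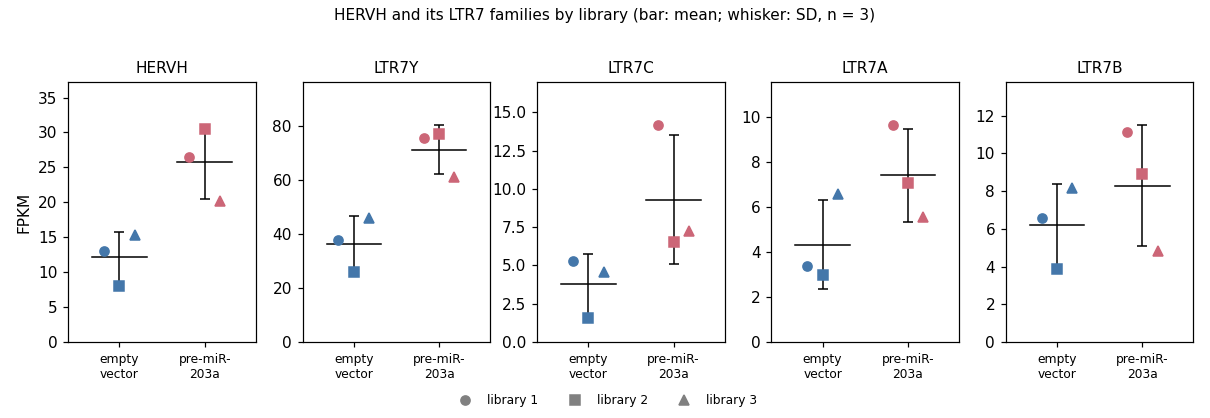
FPKM (vertical axis, a separate scale for each family) of HERVH and of LTR7Y, LTR7C, LTR7A and LTR7B in each library; points are libraries, the horizontal bar is the group mean and the whisker the SD (n = 3). HERVH, LTR7Y and LTR7C are higher in all 3 pre-miR-203a libraries than in any empty-vector library, and LTR7A and LTR7B overlap.

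The other named ERV1 families lay lower than HERVH. LTR12C, the LTR of HERV9 and known as a promoter of gene transcripts in many human tissues, was at 10.8, 5.82 and 12.4 FPKM in the controls against 15.3, 12.2 and 7.39 FPKM with pre-miR-203a. The groups overlapped, and the limma adjusted p was 0.662. LTR17, the LTR of the family that gave rise to the placental syncytin-1 gene, ranged from 1.10 to 2.86 FPKM over the 6 libraries with a log2 fold change of 0.02 ± 0.24 (SE). The internal families HERV17, HERV9 and HERVE were under the filter, with at most 0.564, 0.286 and 1.22 FPKM in any library. MER41B, an LTR known for binding sites of an interferon-activated factor, had 1 to 12 reads per library and was not tested. LTR9B, next after HERVH in order of p, had a log2 fold change of 0.38 ± 0.19 (SE) and a limma adjusted p of 0.227.

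Among ERV3 families, MLT2A2, an LTR of the old HERVL lineage, was at 3.36, 2.02 and 3.04 FPKM in the controls against 4.48, 3.76 and 4.53 FPKM with pre-miR-203a. Here too the groups stood apart, with a log2 fold change of 0.48 ± 0.16 (SE). The limma adjusted p was 0.0949, and 0.0437 with the replicate block. THE1B, a primate LTR that can act as a promoter, ranged from 2.52 to 15.7 FPKM, and both ends of that range were in the pre-miR-203a group.

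HERVK, in ERV2, is the endogenous retrovirus family with the most recent insertions in the human genome. Its internal part was at 3.85, 2.78 and 3.10 FPKM in empty-vector libraries 1, 2 and 3 and at 4.72, 0.465 and 0.313 FPKM in pre-miR-203a libraries 1, 2 and 3. The pre-miR-203a group split, with library 1 above all empty-vector libraries and libraries 2 and 3 far below them, on 592, 73 and 18 reads. The log2 fold change was −0.93 ± 0.52 (SE) with a limma adjusted p of 0.288. Without pre-miR-203a library 1 it was −1.61 with a limma adjusted p of 0.0141.

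LTR5_Hs, the LTR of the youngest HERVK copies, did not share this split. It was at 10.8, 8.27 and 19.2 FPKM in the controls against 17.3, 12.9 and 11.1 FPKM with pre-miR-203a, with overlapping groups and a limma adjusted p of 0.774. The ratio of HERVK to LTR5_Hs reads was 2.78, 2.62 and 1.26 in the controls against 2.12, 0.281 and 0.220 with pre-miR-203a. The 6 other ERV2 internal families together held 0.000948%, 0.000499% and 0.00110% of reads in the controls against 0.00147%, 0.000346% and 0.000328% with pre-miR-203a. As with HERVK, pre-miR-203a library 1 was the highest of the 6 and libraries 2 and 3 were the lowest. MER9a3, an ERV2 LTR with the smallest p of its class, was at 1.61, 0.724 and 2.18 FPKM in the empty-vector libraries, at 1.06 and 0.375 FPKM in pre-miR-203a libraries 1 and 2 and listed at 0 in library 3, with a limma adjusted p of 0.144.

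No L1 family was called in either direction among the 28 tested (limma, Benjamini-Hochberg), 0 had p under 0.05 before adjustment, and limma-voom called 0 of 45 L1 families from recovered reads. L1HS, the human-specific family that holds the copies still able to move, was at 25.6, 13.8 and 28.1 FPKM in the controls against 38.2, 23.7 and 9.72 FPKM with pre-miR-203a. Both the highest and the lowest level were in the pre-miR-203a group. Its log2 fold change was −0.05 ± 0.47 (SE) with a limma adjusted p of 0.969.

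The primate families from L1PA2 to L1PA8 were, like L1HS, all highest in pre-miR-203a library 1. L1PA3 had the highest L1 level, with 40.0, 24.7 and 44.7 FPKM in the controls against 57.5, 46.5 and 21.1 FPKM with pre-miR-203a. L1PA4 came next, with a mean over the 6 libraries of 29.6 FPKM, then L1HS with 23.2, and the ranges of these neighbours over the libraries overlapped. Within each library L1PA3 was above L1PA4 and L1PA4 above L1HS, in 6 of 6 libraries. The 7 families had log2 fold changes from 0.07 for L1PA6 to 0.33 for L1PA7, with limma adjusted p-values from 0.721 to 0.954. L1MB2 and L1MB7, older families with the smallest p of the class, had limma adjusted p-values of 0.188 and 0.553.

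The table lists some L1 families as a piece of about a kilobase and a separate longer piece with the suffix 5, for the 5′ end. In all 6 such pairs the suffix-5 piece was lower per length. L1PA7 averaged 7.58 FPKM over the libraries and its 5′ piece 1.15 FPKM, a ratio of 6.56. The other ratios were 8.23 for L1PA12, 18.5 for L1PA13, 20.1 for L1PA14, 19.6 for L1PA16 and 22.1 for L1MB3. The 5′ piece was the lower one in every library for each pair except L1PA12, where this held in 5 of 6. Genomic L1 copies are known to be mostly cut short at the 5′ end.

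FAM, the fossil Alu monomer, and FLAM, the free left Alu monomer, are remnants older than the dimeric Alu and descend from the 7SL RNA of the signal recognition particle. Their fold changes had opposite signs. FAM was at 32.6, 24.1 and 30.7 FPKM in the controls against 15.0, 6.29 and 5.46 FPKM with pre-miR-203a. All 3 pre-miR-203a libraries were below every empty-vector library, though on few reads, 86, 142 and 148 against 42, 22 and 7. The log2 fold change was −1.72 ± 0.33 (SE), with a limma adjusted p of 0.0143, and the call ended without control library 1 (limma adjusted p = 0.0588) or 3 (0.0503).

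FLAM was at 42.6, 20.5 and 61.2 FPKM in the controls against 75.5, 65.4 and 143 FPKM with pre-miR-203a. No control reached any pre-miR-203a library, with a log2 fold change of 1.22 ± 0.43 (SE) and a limma adjusted p of 0.104, which became 0.014 with the replicate block. The ratio of FLAM to FAM was 1.31, 0.849 and 1.996 in the controls against 5.03, 10.4 and 26.1 with pre-miR-203a. This ratio only restates the 2 families, which were paired for their opposite signs after their values were seen.

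AluYd8, a young Alu subfamily, had the largest log2 fold change of the 123 tested families. It was at 20.7, 4.12 and 1.68 FPKM in the empty-vector libraries, on 88, 39 and 13 reads, and at 46.0, 34.5 and 73.8 FPKM in the pre-miR-203a libraries, on 207, 194 and 152 reads. The groups did not overlap, and the log2 fold change was 2.90 ± 0.71 (SE) with a limma adjusted p of 0.033. The call ended without any 1 library except empty-vector library 1, at limma adjusted p-values from 0.0608 to 0.107, and under the lower and absent filters on low values (0.0559 and 0.0621).

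AluYc5, named after its values were seen, is listed with the same length as AluYd8, 270 bases. It was at 4.71, 15.5 and 36.4 FPKM in the controls against 21.8, 2.13 and 8.74 FPKM with pre-miR-203a. In the empty-vector group the order of the libraries was the reverse of that for AluYd8. The sum of both was 25.4, 19.6 and 38.0 FPKM in the controls against 67.8, 36.6 and 82.5 FPKM with pre-miR-203a, so that the groups overlapped, with p = 0.2 in a two-sided exact permutation test. The mean of the sum was 2.25 times as high in the pre-miR-203a group.

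The other Alu families overlapped as a sum. Apart from AluYd8, FAM and FLAM, they held 0.0857%, 0.0397% and 0.111% of reads in the controls against 0.113%, 0.0877% and 0.0915% with pre-miR-203a, with an exact permutation p of 0.4, two-sided. Empty-vector library 2 stood apart at the low end. PB1D11, filed with the short interspersed elements and the most abundant family per length, was at 498, 236 and 665 FPKM in the controls against 728, 541 and 612 FPKM with pre-miR-203a. AluYa5, among the most active human Alu subfamilies, ranged from 23.3 to 91.8 FPKM with a log2 fold change of 0.12 ± 0.53 (SE). AluSq4 (log2 fold change 0.59 ± 0.19, SE) had a limma adjusted p of 0.0758, and 0.0377 with the replicate block. AluY, the parent of the young subfamilies, was listed with 8 reads in empty-vector library 2, 9 in pre-miR-203a library 3 and at 0 in the others.

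SVA elements, composite repeats of hominoids that are moved by the L1 machinery, were all tested, and limma called 0 of 6, with 0 at an unadjusted p under 0.05 and 0 by limma-voom. SVA_D was the most abundant, at 22.4, 13.9 and 31.7 FPKM in the controls against 37.2, 27.7 and 28.3 FPKM with pre-miR-203a, with a log2 fold change of 0.50 ± 0.28 (SE) and a limma adjusted p of 0.28. The log2 fold changes of the other 5 ran from −0.22 for SVA_E to 0.39 for SVA_C. MIR, an ancient tRNA-derived element, ranged from 1.48 to 4.15 FPKM with a log2 fold change of −0.33 ± 0.28 (SE). MIRc had 0.07 ± 0.24 (SE). L2, the only CR1 family listed, had 10 to 153 reads per library and was under the filter.

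**Figure D4:**
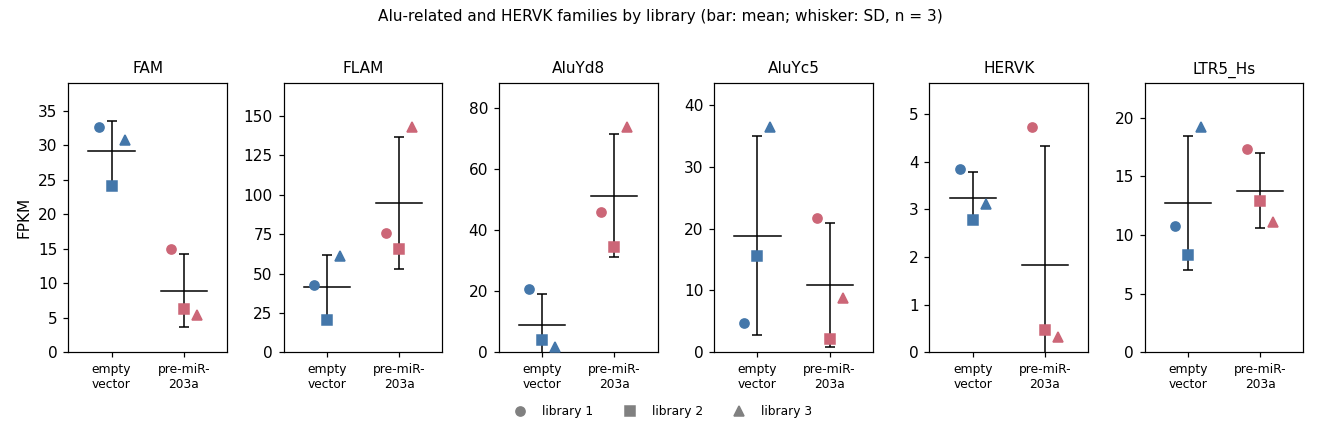
FPKM (vertical axis, a separate scale for each family) of FAM, FLAM, AluYd8, AluYc5, HERVK and LTR5_Hs in each library; points are libraries, the horizontal bar is the group mean and the whisker the SD (n = 3), cut off at 0. FAM is lower and FLAM and AluYd8 are higher in all 3 pre-miR-203a libraries, while HERVK is low in pre-miR-203a libraries 2 and 3 and LTR5_Hs is not.

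The authors' deposited table gave 6 families higher and 1 lower at their DESeq2 adjusted p under 0.05, of 160 families with a value, against 18.3% of all features. HERVH had a log2 fold change of 1.09 in the authors' deposited table, with an adjusted p of 0.000524, and LTR7Y had 0.98 with 0.00136. In the same deposited table of the authors, FAM had −1.65 with 0.000746, FLAM 1.18 with 0.0295, LTR7C 1.32 with 0.0388, AluYd8 2.60 with 0.0486 and AluSx1 1.20 with 0.0488. HERVK had −0.81 with an adjusted p of 0.717 in the authors' deposited table. These values rest on the same libraries as the limma fit.

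UCA1, a long noncoding RNA of epithelial tumours described as a member of the HERVH family by sequence, is listed as a gene and is not among the 262 families. It was at 3.98, 5.21 and 2.78 FPKM in the controls against 11.6, 26.8 and 7.63 FPKM with pre-miR-203a. Its groups did not overlap, and its log2 fold change was 1.56 ± 0.41 (SE) with a limma adjusted p of 0.0428. Its part in the HERVH counts was not tested.

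Genes that silence retrotransposons fell more often than they rose. Of the 46 genes of the list, 40 were tested; 11 fell and 0 rose in the limma fit, while 0 had an unadjusted limma p under 0.05 in the upward direction and 18 in the downward one. Of all tested features 9.18% fell and 6.59% rose. The median log2 fold change of the list was −0.28, against −0.01 over all features. By limma-voom, 0 of 44 rose and 11 fell, and it gave the same direction for each gene named from the lists.

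The 4 called genes with the smallest p were CBX5, CHAF1B, CHAF1A and SUV39H2, and the largest falls were those of UHRF1 and HELLS. CBX5, which encodes the heterochromatin protein HP1 alpha that binds methylated H3 lysine 9, was at 12.5, 11.4 and 11.9 FPKM in the controls against 5.22, 5.38 and 4.61 FPKM with pre-miR-203a. Its groups were far apart, with a log2 fold change of −1.09 ± 0.11 (SE) and a limma adjusted p of 0.00242. CHAF1A and CHAF1B, subunits of the histone chaperone CAF-1, had log2 fold changes of −1.21 ± 0.15 and −1.21 ± 0.12 (SE) with limma adjusted p-values of 0.00431 and 0.00257. SUV39H2, an H3 lysine 9 methyltransferase, had −0.75 ± 0.10 (SE) with a limma adjusted p of 0.00545. UHRF1, HELLS and DNMT1, which maintain DNA methylation through replication, fell by 1.278, 1.24 and 0.88 on the log2 scale, and SUV39H1, CBX1, CBX3 and RB1 were the others that fell. CAF-1, UHRF1, HELLS and DNMT1 are also known for higher levels in dividing cells.

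TRIM28 and SETDB1, which act with KRAB zinc finger proteins, were not called. TRIM28, the corepressor that these zinc finger proteins recruit, was at 144, 172 and 131 FPKM in the controls against 98.9, 116 and 132 FPKM with pre-miR-203a, with overlapping groups and a limma adjusted p of 0.166. SETDB1, the methyltransferase that acts with it, had a log2 fold change of 0.19 ± 0.10 (SE) and a limma adjusted p of 0.285. Its groups did not overlap, with the pre-miR-203a libraries higher.

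**Figure D5:**
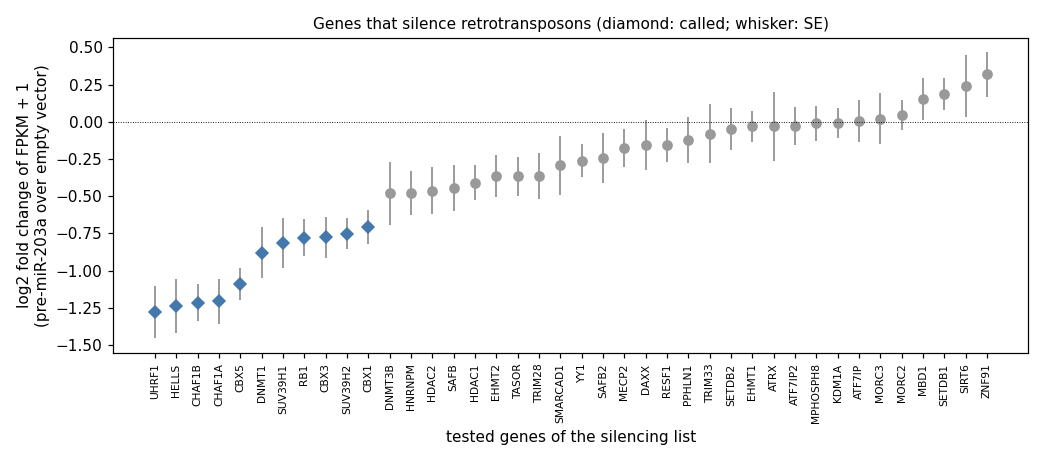
Log2 fold change of FPKM + 1, pre-miR-203a over empty vector (vertical axis), for the 40 tested genes of the silencing list in order of size (horizontal axis); whiskers are the SE and diamonds are genes called by limma. The 11 called genes, from UHRF1 to CBX1, are all below 0, and TRIM28 and SETDB1 are among those not called.

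Of 16 tested genes that restrict retroelements 2 fell and 0 rose in the limma fit, against 9.18% and 6.59% of all features, a share near the background. At an unadjusted limma p under 0.05 there were 2 higher and 3 lower, and limma-voom called 1 higher and 4 lower of 19. Both genes that fell are DNA repair genes. FANCD2 fell by 1.16 and BRCA1 by 1.12 on the log2 scale, with limma adjusted p-values of 0.00863 and 0.00926. Of 11 tested sensors of foreign nucleic acid, 2 rose and 3 fell, against the same shares of all features. MAVS, the mitochondrial adaptor of RNA sensing, was at 20.9, 22.4 and 19.0 FPKM in the controls against 38.3, 37.7 and 35.8 FPKM with pre-miR-203a, a log2 fold change of 0.82 ± 0.11 (SE) with a limma adjusted p of 0.00448.

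OAS1, which makes the 2-5A signal on double-stranded RNA, rose from low levels, with a log2 fold change of 0.51 ± 0.13 (SE) and a limma adjusted p of 0.0375. The OAS1 call ended without a filter on low values, and without any 1 of control libraries 1, 2 and 3 and pre-miR-203a library 1. In each of these fits MAVS was the only list gene called higher. CGAS, the sensor of cytosolic DNA, fell by 0.76 on the log2 scale, OAS3 by 0.83 and IFI16 by 0.73, with limma adjusted p-values of 0.00948, 0.0159 and 0.0161. The calls of OAS3 and IFI16 ended without control library 2 (limma adjusted p = 0.0635 and 0.0619) or 3 (0.0512 and 0.0545), and that of IFI16 also without pre-miR-203a library 1 (0.0596). Of 13 tested small RNA genes 2 rose and 0 fell in the limma fit, near the 15.8% of all features called in either direction. At an unadjusted limma p under 0.05 there were 3 higher and 1 lower, and limma-voom called 3 higher and 0 lower of 13. AGO4, an Argonaute protein, and DICER1, which cuts microRNA hairpins, had log2 fold changes of 0.53 and 0.72 with limma adjusted p-values of 0.0333 and 0.0474, and each lost its call without any 1 of 5 libraries (limma adjusted p from 0.0566 to 0.152) and without a filter on low values (0.0558 and 0.0829), DICER1 also under the lower filter and pseudocount (0.0695).

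Host genes that descend from retroelements are single genes and are counted apart from the families. Of 12 tested, 3 fell and 1 rose, against 9.18% and 6.59% of all features. PEG10, a gag-pol gene of an ancient retrotransposon that placenta depends on in the mouse, was at 30.3, 32.6 and 25.5 FPKM in the controls against 13.9, 19.9 and 14.2 FPKM with pre-miR-203a. Its log2 fold change was −0.85 ± 0.17 (SE) with a limma adjusted p of 0.0147, and the call ended without control library 1 (0.0631) or 2 (0.0588) or pre-miR-203a library 1 (0.0596).

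RTL8B and RTL8C, gag-derived genes of the same lineage, moved apart. RTL8B was at 9.43, 9.35 and 8.54 FPKM in the controls against 4.29, 4.56 and 4.91 FPKM with pre-miR-203a, with a log2 fold change of −0.86 ± 0.11 (SE) and a limma adjusted p of 0.00422. RTL8C rose, from 50.1, 45.0 and 45.3 FPKM to 72.7, 62.3 and 94.8 FPKM, with a log2 fold change of 0.68 ± 0.16 (SE) and a limma adjusted p of 0.0304. The RTL8 genes are close copies of each other, so how shared reads were divided bears on both, and the RTL8C call ended without any 1 of 4 libraries (limma adjusted p from 0.0822 to 0.103) and without a filter on low values (0.0563). ERVMER34-1, an envelope gene of an endogenous retrovirus, fell by 0.98 on the log2 scale, with a limma adjusted p of 0.00608.

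A 3′ UTR letter search put these genes beside the microRNA. The letters CATTTCA, the complement of bases 2 to 8 of miR-203a-3p, were sought on the transcribed strand of the longest GENCODE 29 3′ UTR of each gene. They occurred in 22.8% of the 10180 tested coding genes with a 3′ UTR and in 4 of the 11 silencing genes that fell (CBX3, CBX5, HELLS and RB1). In the whole silencing list they occurred in 11 of 40 genes (27.5%), in the restriction genes that fell in 0 of 2, and in the sensors that fell in 1 of 3 (OAS3). Among the retroelement-derived genes that fell, PEG10 and RTL8B held them and ERVMER34-1 did not. DICER1, which rose, held them too. Sites are shown for 4 genes to let the matches be compared, on GRCh38, with the match in capitals and 1 further base where an A follows it: CBX3 at chr7:26212757-26212785 (plus strand), CBX5 at chr12:54234838-54234866 (minus), PEG10 at chr7:94666755-94666783 (plus) and RTL8B at chrX:135020663-135020691 (minus).
CBX3: ctgaaaccataCATTTCAAgtgaaataag
CBX5: attctgatcctCATTTCAtctaacatcat
PEG10: atgcatctgggCATTTCAtcttcagtccc
RTL8B: tgatcctggtaCATTTCAtaagcttgggt
The 4 sites share the 7 letters, and CBX3 alone has the further A. A T follows the match in CBX5, PEG10 and RTL8B, and in CBX5 and PEG10 the letters CT come after it. CBX5 held a second match, not printed, at chr12:54232122-54232150 (minus). A match is a description of the letters and not a site shown to be used. Sequences of the repeat families themselves were not used here.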

How the data were processed

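RNA-seq values of 6 libraries, 3 per group, were used, with groups and replicate numbers from the sample titles. Per the submitters' processing notes the genome build was hg38, and DESeq2 1.28.1, featureCounts 2.0.0, MultiQC 1.6 and FastQC 0.11.5 were named as tools. The aligner, strand setting and handling of multi-mapping repeat reads are not given in the sources used here. FPKM values for 18999 features were deposited by the authors. A second deposited table of the authors held TPM (not used further), baseMean, a signal of size-factor-scaled reads, and DESeq2 log2 fold changes with p-values, printed here with the sign reversed, as pre-miR-203a over empty vector.

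No raw counts were among the files, so limma 3.58.1 in R 4.3.3 (trend, robust) fitted log2(FPKM + 1), and edgeR and DESeq2 were not run. A feature was tested if 3 or more libraries had it at 1 FPKM or above, an adjusted p under 0.05 was called, and fold changes on this scale understate those of low features. Reads were recovered from FPKM with the help of baseMean, and whole numbers resulted for 100% of values (tolerance 0.01). Limma-voom on these reads (10 or more in at least 3 libraries) called 2100 of 14304 features. Depth was 7632063 to 35084590 reads, which limits families with few reads. Replicates were not copies of 1 library, with a chi-square of 7.78 to 88.1 per family. Both fits were also run on simulated counts with a common dispersion and no shared library differences. The families here do share library differences, so that run does not show how the fits perform on them.

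Deviations from group means correlated at 0.433, 0.269 and 0.321 between libraries with the same replicate number, all above 0.1, over all tested features. Control library 1 and pre-miR-203a library 2, with different numbers, also passed 0.1, at 0.221. The other unmatched pairs ran from −0.417 to −0.0853. Whether the numbers pair the libraries is thus not settled. The main fit and the exact permutation tests were unpaired, and the replicate block was an alternative. The labels state no shared batch or day. Over the tested families alone the correlations between libraries with the same replicate number were −0.25, −0.21 and −0.01. Between libraries with different numbers they ran from −0.06 to 0.24. Blocked values are given for the named families and markers whose calls they change.

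The members and the 5 gene lists (151 entries, 112 listed) were chosen with earlier results of these data known. The named families, 41 in all, were the called ones, in each class the highest by mean FPKM and the 2 smallest by p, and families known from the literature. From each gene list came up to 4 called members with the smallest p. TRIM28, SETDB1, UCA1, OAS1, AluYc5, AluSq4 and other genes and families outside this rule were named after their values were seen. Other software was matplotlib 3.10.9, scipy 1.17.1, pandas 2.3.3, numpy 2.4.6 and Python 3.11.15.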

Additional observations from a re-analysis of the deposited data

How the results depend on the processing

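Limits first: 3 libraries per group, a depth that differs by up to 4.60 times, families such as FAM with 7 reads in a library, and unknown handling of multi-mapping reads. The count of families called higher, 3, was 1 without a filter on low values and 6 with the replicate block, and 0 to 3 when each library was left out. The count called lower, 1, was 0 to 2 with a library left out. List genes called higher, 5, numbered 1 without a filter, 8 with limma-voom and 1 to 7 with a library left out, and list genes called lower, 19, numbered 14 to 21. The cause was not tested. For families, the fit with the replicate block changed no call other than those given beside the results. For restriction genes it called 1 higher and 3 lower, against 0 and 2 without the replicate block.

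For class shares, as a log2 ratio, CR1 at −0.39 was 0.048 with the replicate block. Without its most abundant family, ERV1 went from 0.75 to 0.11, ERV2 from −0.15 to 0.081 and MIR from −0.27 to 0.016. As a share of retrotransposon reads, L1 went from 0.16 to −0.29 and SVA from 0.30 to −0.015. With each library left out the ranges were −0.94 to 0.47 for CR1, −0.77 to 0.12 for ERV2, −0.39 to 0.53 for L1, −0.57 to 0.049 for MIR, 0.04 to 0.58 for all families, 0.01 to 0.65 for Alu and related, 0.50 to 0.98 for ERV1, 0.36 to 0.82 for ERV3, 0.03 to 0.60 for SVA and 0.83 to 1.26 for HERVH with LTR7.

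Families that were not called changed sign. L1HS was 0.049 with limma-voom. With each library left out the ranges of log2 fold changes were −0.084 to 0.48 for LTR5_Hs, −0.17 to 0.53 for L1PA3, −0.21 to 0.30 for MIRc, −0.47 to 0.47 for L1HS, −0.060 to 0.78 for L1PA2, −0.35 to 0.66 for L1PA4, −0.22 to 0.43 for L1PA5, −0.37 to 0.63 for L1PA6, −0.15 to 0.73 for L1PA7. They were −0.078 to 0.56 for L1PA8, −0.52 to 0.44 for AluYa5, −0.16 to 0.43 for SVA_A, −0.20 to 0.32 for SVA_B, −0.66 to 0.059 for SVA_E, −0.18 to 0.53 for SVA_F, −0.18 to 0.26 for LTR17, −0.046 to 0.52 for LTR12C and −0.76 to 0.36 for THE1B. The edgeR and DESeq2 alternative was not run because the files hold no counts, and trimmed-mean scaling was computed here in place of edgeR's.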
